A study of Mus musculus with 2 samples.

Results

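Fc receptors are proteins that bind the constant part of antibodies. Transcripts of 10 genes for such receptors, their signalling chain or Fc receptor-like proteins were followed in mouse spleen. These genes were Fcgr1, Fcgr2b, Fcgr3, Fcgr4, Fcer1g, Fcgrt, Fcamr, Fcrla, Fcrl1 and Fcrl5. They were chosen by name, and their probes were found through the transcript accessions on the array, which gave 11 probes for 10 genes of 20651 genes with a named probe. Spleen RNA of untreated male mice was hybridised to 2 one-colour arrays, 1 from wild-type (Loxl3+/+) animals and 1 from animals labelled Loxl3 knock-out (Loxl3-/-). Loxl3 encodes an enzyme of the lysyl oxidase family. The labels give no age or strain, do not describe the deleted part of the gene, and do not say whether animals were pooled. The comparison asks how spleen expression differs with the Loxl3 genotype. With 1 array per group there is no replicate check and no p-value, so every value describes these 2 arrays.

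Antibody receptors of the Fc gamma class read out bound IgG on macrophages, monocytes, neutrophils, natural killer cells and B cells. Fcgr1, Fcgr3 and Fcgr4 are activating receptors that signal through the common gamma chain, encoded by Fcer1g, whose tyrosine motif recruits the kinase Syk. Fcgr2b is the inhibitory receptor, and its own tyrosine motif recruits the lipid phosphatase SHIP-1. Fc receptor-like genes are relatives expressed mainly by B cells, while the neonatal receptor Fcgrt recycles IgG and albumin inside cells. Spleen is rich in both kinds of cell, with B cells in the follicles and macrophages in the red pulp.

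The genes lie in groups on the genome. By RefSeq, chromosome 1 holds 6 of the 10, chromosome 3 holds 3 and chromosome 7 holds Fcgrt, and Fcgr2b, Fcgr4 and Fcgr3 follow each other on chromosome 1 with no other protein-coding gene between them. The 250 bases before the start of 4 IgG receptor genes are printed from RefSeq, build GRCm38.p6, since Fcgr3 and Fcgr4 are neighbours with opposite differences below, Fcgr2b is the inhibitory receptor beside them, and Fcgr1 is the only one of the 10 with a STAT-type match. Capitals mark GAGGAA, the core bound by PU.1 and other ETS factors of myeloid and B cells, the STAT-type TTCNNNGAA and an interferon-response-type motif (GAAA, any 2 bases, GAAA), each on either strand.
Fcgr1, chr3:96293970-96294219, minus strand: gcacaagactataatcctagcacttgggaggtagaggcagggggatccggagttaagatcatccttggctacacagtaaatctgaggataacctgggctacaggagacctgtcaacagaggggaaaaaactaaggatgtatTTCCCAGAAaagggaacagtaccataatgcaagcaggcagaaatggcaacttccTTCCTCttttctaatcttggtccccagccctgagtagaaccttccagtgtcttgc
Fcgr3, chr1:171059404-171059653, minus strand: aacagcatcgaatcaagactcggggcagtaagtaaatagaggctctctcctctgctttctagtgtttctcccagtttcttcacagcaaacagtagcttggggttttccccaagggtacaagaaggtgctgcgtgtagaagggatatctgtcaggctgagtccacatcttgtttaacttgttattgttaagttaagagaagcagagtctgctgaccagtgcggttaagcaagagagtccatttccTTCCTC
Fcgr4, chr1:171018676-171018925, plus strand: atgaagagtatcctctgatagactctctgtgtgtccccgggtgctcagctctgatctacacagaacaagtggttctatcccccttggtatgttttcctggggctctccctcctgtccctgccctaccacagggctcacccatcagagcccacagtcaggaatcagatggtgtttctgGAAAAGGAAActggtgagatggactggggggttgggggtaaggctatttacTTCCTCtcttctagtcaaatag
Fcgr2b, chr1:170976072-170976321, minus strand: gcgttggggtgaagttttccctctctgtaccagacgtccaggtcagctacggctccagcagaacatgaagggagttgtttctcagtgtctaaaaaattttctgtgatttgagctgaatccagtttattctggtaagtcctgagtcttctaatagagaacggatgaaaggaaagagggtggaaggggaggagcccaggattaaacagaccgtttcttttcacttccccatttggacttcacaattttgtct

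All 10 genes had an entry in the promoter table, Fcgr3 with 2 starts, of which the first listed is shown. GAGGAA or its reverse complement TTCCTC stood in the window of 6 of the 10 (Fcamr, Fcgr1, Fcgr3, Fcgr4, Fcrl1 and Fcrla), against 23.3% of all 32851 windows of the same length. In Fcgr3 it ended at the base before the start, and in Fcgr4 it lay 22 to 17 bases before it. TTCNNNGAA, which reads the same on both strands, stood in Fcgr1 as TTCCCAGAA 109 to 101 bases before the start, against 7.02% of all windows. The interferon-response-type motif stood in Fcgr4, 73 to 64 bases before the start, and in Fcrla, 192 to 183 bases before it, against 2.98% of all windows. The E-box CACGTG (6.02% of all windows) and the EBF-type motif (TCCC, any 2 bases, GGGA, 0.779%) were found in none of the 10, and no matches overlapped. A match describes these letters only.

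The 2 arrays stood apart in several cell type lists. The Loxl3 probe gave signals of 117 (wild type) and 125, a log2 difference of −0.43 ± 0.29 after scaling. No source used here places that probe inside or outside the deleted part, so the genotype cannot be checked with it, and the second array is called knockout-labelled throughout. Exocrine pancreas markers were at least 2-fold higher on it in 7 of 7 genes (median log2 difference 4.08). Neutrophil markers were at least 2-fold lower in 7 of 10 (median −1.61), as were platelet and megakaryocyte markers in 5 of 6 (median −1.80). Markers expected in spleen were well above background, with 11 of 12 B cell, 8 of 9 T cell and 9 of 10 red pulp macrophage genes measured and medians of −0.02, −0.15 and 0.05, each of which changed sign under at least 1 other scaling.

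The 9 Fc receptor genes well above background on both arrays differed by less than 2-fold, and Fcamr, which has only a lower bound, cannot be placed on either side of 2-fold. Signals were first divided by each array's 75th percentile, 974 on the wild-type and 1400 on the knockout-labelled array, and a log2 difference is the scaled value in the knockout-labelled spleen less that in wild type. Errors after ± are those of the scanner software, carried to the log2 difference, and hold no variation between animals. Of the 10 genes 9 were well above background on both arrays, while Fcamr was so in the knockout-labelled spleen and not in wild type. With Fcamr counted at its bound, none of the 10 passed 2-fold in either direction, where 4.09% of all 13713 genes measured did, 2.11% higher and 1.98% lower. Of all genes past 2-fold 51.7% were higher, a share of 39.0% with median scaling and 71.0% with scaling on probes above background on both arrays. Only Fcgr4 passed 1.5-fold, on the lower side (9.29% of all genes did), and none on the higher side (7.49%). The differences of 2 of the 10, Fcgr4 and Fcgr3, exceeded 2 times their error, against 26.9% of all genes, so the share among the Fc receptors lay near that of genes at large. The median of the 10 was 0.07 (−0.03 with median scaling), beside a median of −0.09 over all genes. Of the 10, 6 were above 0 and 4 below, or 5 and 4 without Fcamr, whose bound cannot fall below 0.

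**Figure D1:**
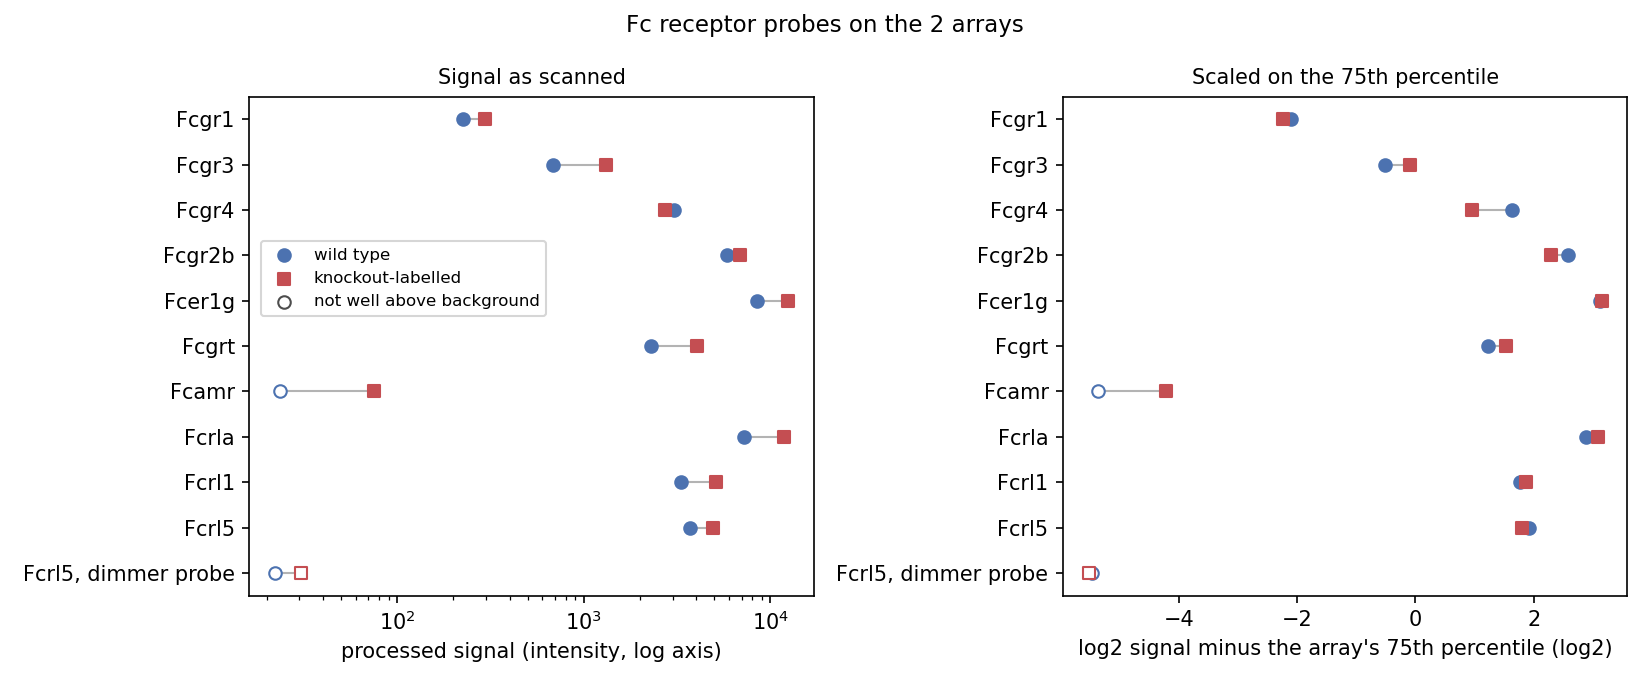
Signals of the 11 Fc receptor probes on the wild-type array (blue circles) and the knockout-labelled array (red squares), as scanned on a log axis (left) and as log2 signal minus the array's 75th percentile (right). Open symbols mark probes not well above background. On the left most probes are brighter on the knockout-labelled array, and after scaling Fcgr4 lies lower and Fcgr3 higher on it.

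Among the activating IgG receptors, Fcgr4 and Fcgr3 differed in opposite directions. Fcgr4, which binds IgG2 subclasses on monocytes, macrophages and neutrophils, gave signals of 3026 in wild-type and 2706 in knockout-labelled spleen. It was the only member with a lower signal on the knockout-labelled array before scaling. After scaling its log2 difference was −0.68 ± 0.20, or 1.61 times lower. It was negative in all 10 other processings tried, between −0.78 and −0.54, but not all of these could move it. With a single probe detected on both arrays, the settings on probe choice and dim probes returned the same −0.68. The deposited value table nearly repeated quantile normalization (−0.56 in each). Fcgr4 no longer passed 1.5-fold in 4 of the 10. These were quantile normalization, loess, the deposited value table and scaling on probes above background on both arrays.

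Fcgr3, the low-affinity activating receptor of natural killer cells, macrophages and neutrophils, gave signals of 681 in wild-type and 1318 in knockout-labelled spleen. Its log2 difference was 0.43 ± 0.21, or 1.35 times higher. It lay between 0.33 and 0.57 in the 10 other processings, of which those on probe choice and dim probes could not move it. Set against each other, the Fcgr3 difference exceeded that of Fcgr4 by 1.11 ± 0.29 on the log2 scale. This contrast does not depend on a factor common to an array, and it was at least 0.97 in each other processing. The differences of Fcgr1 and Fcgr2b exceeded that of Fcgr4 by 0.55 ± 0.31 and 0.38 ± 0.29, less than 2 times the error. Fcgr1, the high-affinity receptor of monocytes and macrophages, was dim, with signals of 226 and 296. Its log2 difference of −0.14 ± 0.24 was within the error, and its sign turned, to 0.0071, under the scaling that used probes detected in both samples. In whole-tissue RNA, fewer cells of a type and less RNA per cell cannot be told apart.

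Marker lists of cells that carry Fcgr3 and Fcgr4 differed in size and direction. The neutrophil list had summed signals of 267 in wild-type and 97.7 in knockout-labelled spleen, in multiples of the 75th percentile. All 10 measured genes were below 0, and Ly6g was the only one without a named probe. The sizes were uneven, from −2.64 for Camp to −0.18 ± 0.23 for Cxcr2. Csf3r (−0.79), Retnlg (−0.79) and Cxcr2 did not pass 2-fold. Monocyte markers had 0 of 7 genes at 2-fold, a median of −0.12 (0.02 when scaled on probes detected in both samples) and summed signals of 79.3 and 72.8. Within that list F13a1 was at −0.87, and Cx3cr1, the chemokine receptor of patrolling monocytes, at −0.58 by the brighter of its probes and 0.02 by the dimmer. Fn1 (signals of 6784 and 13308) was at 0.45 and Vcan, by its brightest probe, at 0.13, on the other side of 0. Ccr2, Csf1r (by its brightest probe) and Nr4a1 were at −0.09, −0.12 and −0.30. Other Csf1r probes were at 0.88 and 0.08. Another Vcan probe, well above background in wild type alone, was at least 2.03-fold lower. Natural killer cell markers had a median of 0.21, with 0 of 8 at 2-fold, but lower summed signals, of 26.7 and 22.6. Red pulp macrophage markers had 0 of 9 at 2-fold, and their summed signals of 154 and 143 were also lower where their median was above 0. Over all 13713 genes measured the summed signals were lower too, at 63565 in wild-type and 50825 in knockout-labelled spleen. A lower sum alone is therefore not particular to a list. The part of these cell types in the Fcgr3 and Fcgr4 values was not tested.

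The inhibitory receptor Fcgr2b was the only member measured with repeated spots. Its probe was printed 10 times, and on the wild-type array the lowest, median and highest signals were 4996, 5960 and 6169. On the knockout-labelled array 1 spot was left out as an outlier, and the other 9 gave 6401, 6785 and 7403. Every spot was thus brighter on the knockout-labelled array as scanned. After scaling the order turned, with 5.13 to 6.33 times the 75th percentile on the wild-type array and 4.57 to 5.29 on the other, so that the ranges overlapped by 1 spot of each array. The 9 pairs of spots had log2 differences from −0.45 to −0.08 with an SD of 0.12, all below 0. These spots share 1 RNA sample per group, so their spread is technical.

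**Figure D2:**
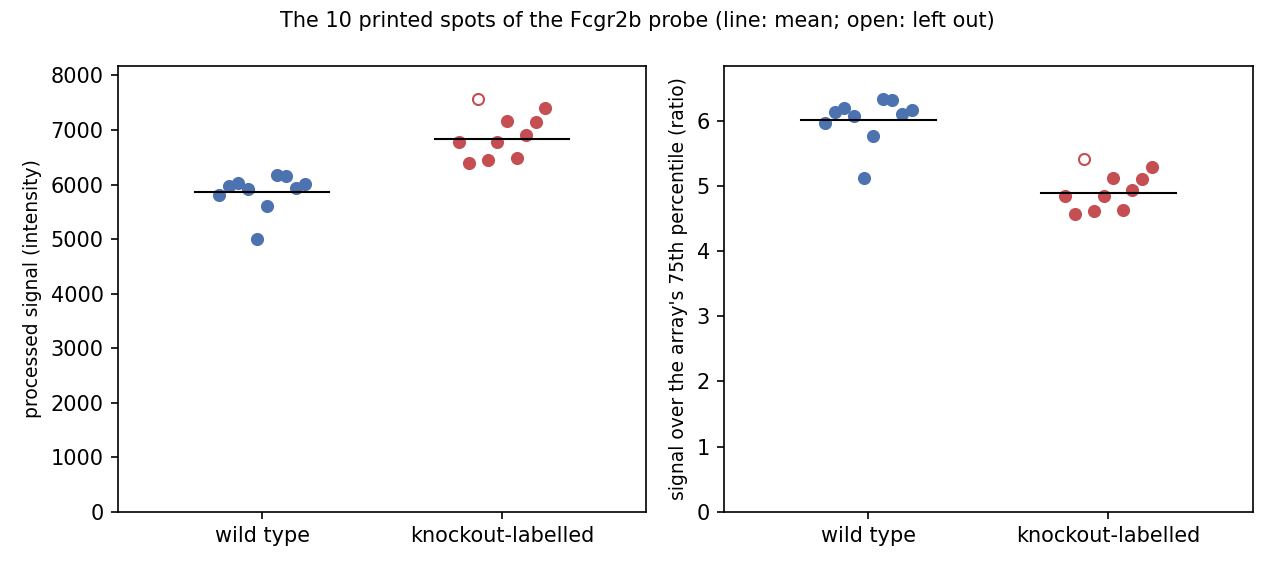
The 10 printed spots of the Fcgr2b probe on each array, as scanned (left, processed signal) and divided by the array's 75th percentile (right, a ratio). Lines are means over the spots used, and the open circle is the spot left out. The knockout-labelled spots lie above the wild-type spots on the left and below all but 1 of them on the right.

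The scaled log2 difference of Fcgr2b was −0.30 ± 0.20, or 1.23 times lower. It was negative in all 10 other processings, of which those on probe choice and dim probes could not move it. The values ran from −0.39 to −0.10, the last with the loess trend removed, so the size depends on how bright signals were scaled. Fcgr3 exceeded Fcgr2b by 0.73 ± 0.29, and by 0.53 to 0.76 in the other processings. Scaling by a factor common to an array, probe choice and dim probes could not move this contrast. The extracellular parts of Fcgr2b and Fcgr3 are close in sequence, and since probe sequences were not used here, shared signal between their probes could not be assessed.

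Fcer1g, the signalling chain without which the activating receptors do not reach the cell surface, had signals of 8426 and 12425. Its log2 difference was 0.04 ± 0.20, within the error. It was 0.29 with loess and −0.06 with median scaling, so no direction can be given. The difference of Fcgr4 lay below that of its partner chain by 0.72 ± 0.29.

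The B cell receptor-like genes lay close to 0. Fcrla, an intracellular protein of B cells that binds immunoglobulin, had signals of 7173 and 11837 and a log2 difference of 0.20 ± 0.20, which reached 0.44 with loess. Fcrl1, an activating coreceptor of B cells, had signals of 3321 and 5104 and a difference of 0.10 ± 0.20, the lowest of its other values being 0.0026 with median scaling. Fcrl5, found on marginal zone and B-1 cells, had signals of 3704 and 4899 and a difference of −0.12 ± 0.20 with its bright probe, positive in 4 of 10 other processings. Its other probe, designed on another transcript, gave 22.2 and 30.5, not well above background on either array. B cell markers had summed signals of 173 and 141, beside 63565 and 50825 over all genes. Of the 11 genes measured 1 passed 2-fold, Fcer2a, on the higher side. At 1.5-fold 3 were higher and 0 lower.

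Of the 2 remaining receptors, Fcgrt had signals of 2280 and 4059, a log2 difference of 0.31 ± 0.20 that stayed between 0.21 and 0.46. B2m, the light chain that Fcgrt needs for its fold and transport, went the other way, with signals of 77119 and 72706 and a difference of −0.61 ± 0.20. Fcgrt exceeded B2m by 0.92 ± 0.29, which narrowed to 0.57 in the deposited value table, where B2m was at −0.13. Fcamr, a receptor for IgM and IgA, gave 23.7 in wild type, not well above background, and 75.3 in knockout-labelled spleen. It was at least 1.25-fold higher there, a bound set by the dimmest wild-type signal that counted as detected.

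**Figure D3:**
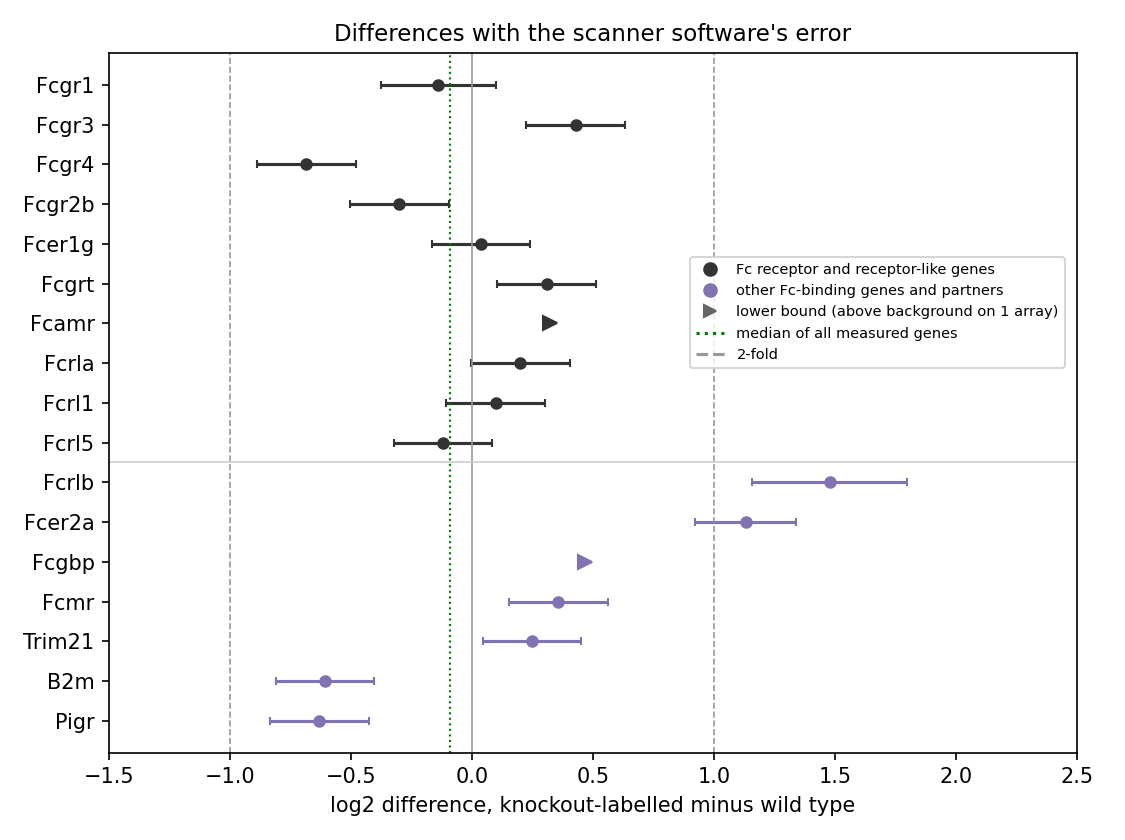
Log2 differences (knockout-labelled minus wild type) of the 10 Fc receptor genes (black) and of 7 further Fc-binding genes and partners (purple), with the scanner software's error as bars. Triangles are lower bounds for genes above background on 1 array, the dotted line is the median of all genes (−0.09) and dashed lines mark 2-fold. Fcrlb and Fcer2a lie beyond 2-fold, and the 9 Fc receptor genes measured on both arrays lie within it, while Fcamr is drawn at its lower bound.

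Other Fc-binding genes spread more widely than the 10. Of 11 listed, 7 were measured, and 2 were at least 2-fold higher, beside 2.11% of all genes. None was 2-fold lower, and the median was 0.36. Fcrlb, an intracellular relative of Fcrla and its neighbour on chromosome 1, had signals of 77.7 and 311 and a log2 difference of 1.48 ± 0.32, or 2.79 times higher. It exceeded the difference of Fcrla by 1.28 ± 0.38. It was at 0.70, below 2-fold, with normexp background correction. Fcer2a, the low-affinity IgE receptor of B cells, had signals of 519 and 1633 and a difference of 1.13 ± 0.21, which was 0.96 with normexp.

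Fcmr, the IgM receptor of B cells, was at 0.36 ± 0.20, and its value moved from 0.13 with normexp to 0.73 in the deposited table. Trim21, the cytosolic antibody receptor, was at 0.25 ± 0.20, and Fcgbp, a mucin-like IgG-binding protein, was at least 1.38-fold higher, with 41.1 in wild type not well above background and 83.3 in knockout-labelled spleen. Pigr, which carries polymeric antibodies across epithelia, had a probe at 133308 and 123721 (−0.63 ± 0.20, but −0.11 with quantile normalization) and another of the same accession, at 12.3 and 18.4, not well above background. The high-affinity IgE receptor chains Fcer1a (62.4 and 56.1) and Ms4a2 (9.19 and 11.4), and the receptor-like genes Fcrls (53.9 and 90.3) and Fcrl6 (29.2 and 17.6), were not well above background on either array. Mast cell and basophil markers, a list that also holds these IgE chains, had 3 of 6 measured genes at least 2-fold lower. Of these, Mcpt8 and Prss34 were well above background in wild type alone, and Hdc was at −1.42. Cpa3 was at −0.31, Gata2 at 0.01 and Kit at 0.58. The median of −0.69 became −0.15 with genes detected on both arrays.

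Genes downstream of the receptors had at most 1 gene per list past 2-fold in each direction, and medians near 0. Over all 13713 genes 2.11% were at least 2-fold higher and 1.98% lower, which is the background for this list and those below. A count of 1 in a list this small cannot be told apart from those shares. Of 30 activating signalling genes 27 were measured, of which 1 passed 2-fold on the higher side and 1 on the lower. Their median was −0.05, and it was above 0 in 6 of 10 other processings, up to 0.18 with loess. The higher was Pik3r1, a regulatory subunit of phosphoinositide 3-kinase, at 1.07 ± 0.21 with signals of 302 and 910. The lower was the adaptor Lat, at −1.77 ± 0.20, with signals of 9694 and 4081. Syk, the kinase that docks on the gamma chain, was at −0.07, and the Src family kinases Lyn and Fgr were at 0.16 and −0.04.

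Of 12 inhibitory signalling genes 11 were measured, with none at least 2-fold higher, 1 lower and a median of 0.07 (−0.03 with median scaling). Inppl1, the phosphatase SHIP-2, was at −1.25 ± 0.20 with signals of 10793 and 6532. Inpp5d, which encodes SHIP-1, the phosphatase recruited by Fcgr2b, was at 0.52 ± 0.20 with signals of 9001 and 18566. The ubiquitin ligase Cbl was at 0.69.

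Receptors that also use the gamma chain, or related adaptors, had a median of −0.08 over 15 of 16 genes (0.12 with loess), with none at least 2-fold higher and 2 lower. Gp6, the collagen receptor of platelets, was at −1.61 ± 0.25 with signals of 371 and 174. Beside it the platelet and megakaryocyte markers had summed signals of 47.0 and 13.8, and their part in the Gp6 value was not tested. Cd300lf, an immune receptor of myeloid cells, was at −1.01 ± 0.20, and its other probes were at −0.86 and −0.82. Ncr1, the activating receptor of natural killer cells, was at 0.72, and the adaptor Tyrobp was at 0.30. Complement and opsonin receptors and ligands had none of 10 measured genes at 2-fold and a median of −0.25, whose sign turned in 3 processings, to 0.075 with loess, 0.071 after quantile normalization and 0.072 in the deposited table. Itgax, a complement receptor subunit, was at 0.92, Lgals3 at −0.59 and C1qa, a subunit of the complement protein that binds antibody complexes, at 0.57.

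**Figure D4:**
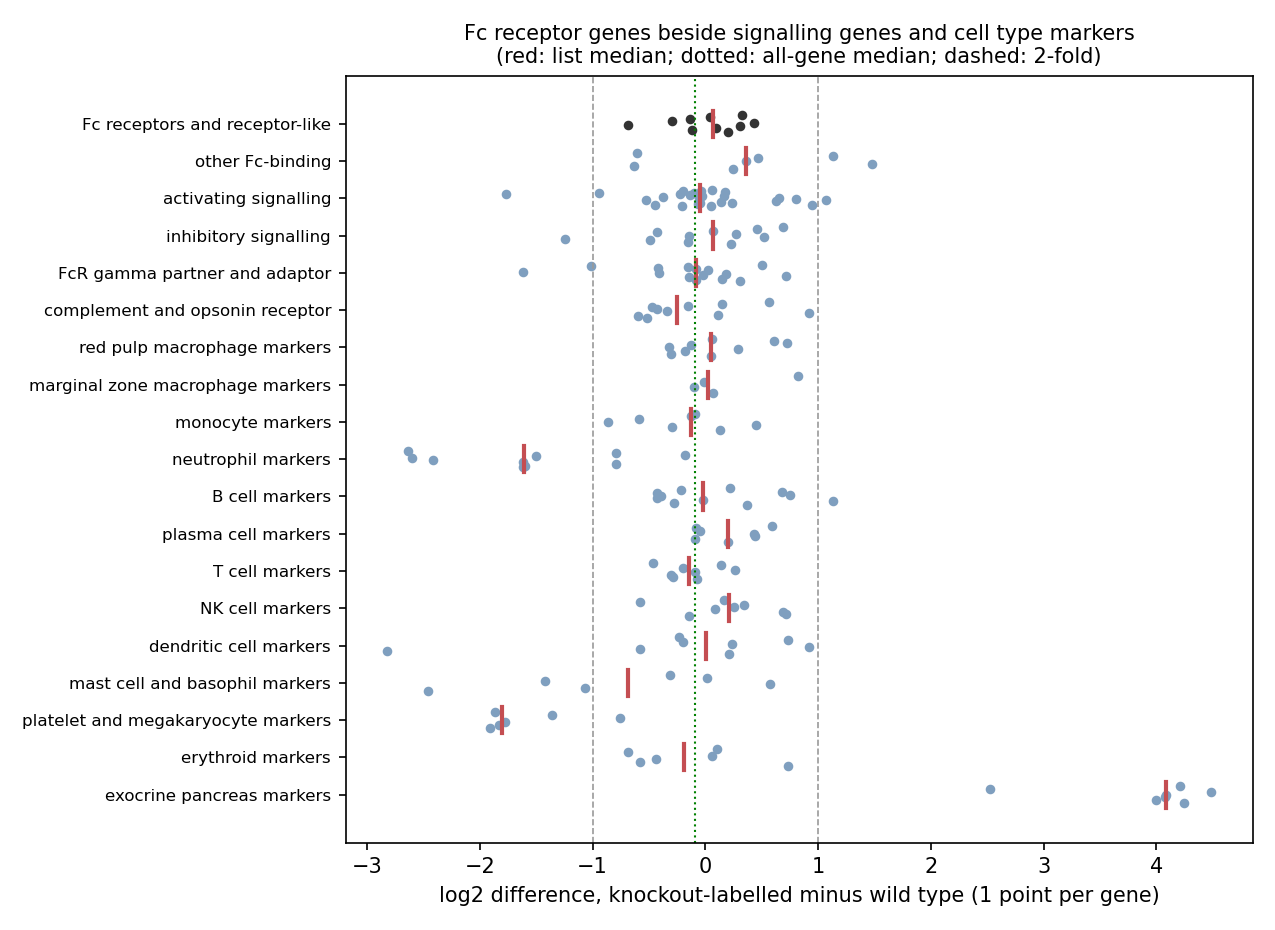
Log2 differences (knockout-labelled minus wild type) of every measured gene, 1 point per gene with genes above background on 1 array at their bound, for the Fc receptor genes (black), 5 lists of related genes and 13 cell type marker lists. Red lines are list medians, the dotted line is the all-gene median and dashed lines mark 2-fold. The 9 Fc receptor genes measured on both arrays stay within 2-fold and Fcamr is drawn at its lower bound, while neutrophil and platelet markers lie to the left and pancreas markers far to the right.

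Genes next to the Fc receptors on chromosome 1 did not share a direction. Within 5 protein-coding genes of the 6 members there were 28 others, 19 of them measured, with a median of −0.13, beside −0.09 over all genes. Of all genes 7.49% were at least 1.5-fold higher and 9.29% lower. Near these shares, 1 neighbour, Fcrlb, was at least 1.5-fold higher, and 2 were at least 1.5-fold lower. These were Nr1i3, a nuclear receptor gene near Fcer1g, at −1.38 ± 0.23 with signals of 463 and 256, and Pigr, given above.

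Among the genes well above background on both arrays, Fcgr4 and Fcgr2b stayed below 0 under every other processing, and Fcgr3, Fcgrt, Fcrla and Fcrl1 stayed above. For these genes the settings on probe choice and dim probes could not change the value. Fcamr is left out here, since a bound from the knockout-labelled array alone cannot fall below 0. Fcgr1, Fcer1g and Fcrl5 crossed 0. Against the median of all genes under the same processing, Fcgr1, Fcgr2b and Fcgr4 lay below it in each of the 10 and Fcer1g above it in each. Scaling by a factor common to an array shifts a gene and this median alike, so such settings could not change the order. For Fcgr1 (−0.14 ± 0.24) and Fcer1g (0.04 ± 0.20) the gap to the all-gene median of −0.09 was within the error.

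**Figure D5:**
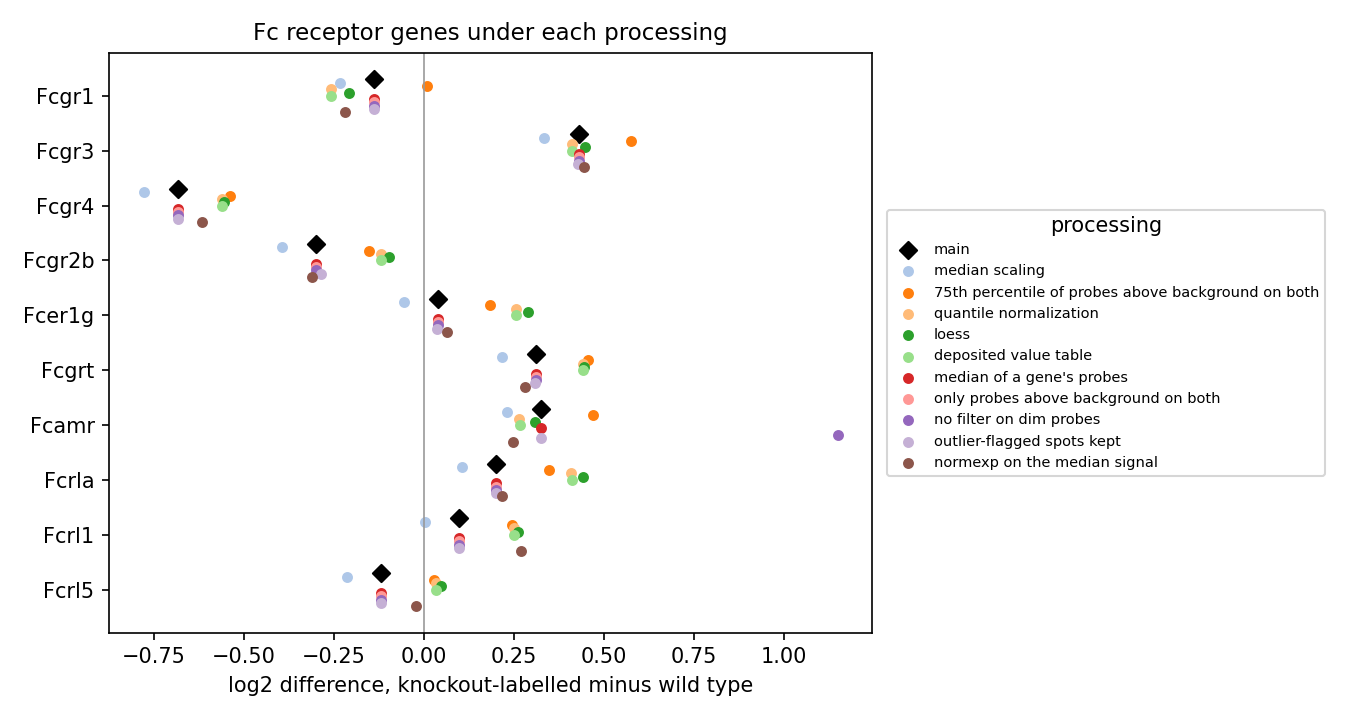
Log2 difference (knockout-labelled minus wild type) of each Fc receptor gene as reported (black diamonds) and under 10 other processings (coloured points). Fcgr4 lies between −0.78 and −0.54 and Fcgr3 between 0.33 and 0.57, and Fcgr1, Fcer1g and Fcrl5 have points on both sides of 0.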

How the data were processed

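The members and gene lists were chosen with earlier results of these data known. Per the file headers, the deposited scanner files hold intensity values per spot from Agilent Feature Extraction 11.0.1.1 (protocol GE1_1100_Jul11, probe build mm9), 1 Cy3 array per group. Values in the authors' deposited table range as log2 signals do, and each column has a median of 6.71. Its probe differences correlated with those of quantile-normalized scanner values (Pearson r = 0.9996), so it appears quantile-normalized, with both columns in the labelled direction.

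Log2 processed signals were averaged over a probe's spots without 110 and 132 outlier-flagged spots, and each array's 75th percentile was subtracted. No spot was saturated. Accessions without versions were matched to RefSeq symbols (assembly GRCm38.p6), naming 27220 of 39420 probes. The brightest probe well above background on at least 1 array stood for a gene (13713 genes). Where 1 array only showed a gene well above background, its value is a bound ("at least"), taken against the higher of its dim signal and the lowest signal called well above background. Over 251 probes printed 10 times the log2 difference had a median SD of 0.11. With 1 array per group no test was possible, and the number of arrays limits precision. Named were all members, all other Fc-binding genes, list genes past 2-fold or the 3 largest, and chromosome 1 neighbours past 1.5-fold, with further genes of the lists (such as Syk, Inpp5d and Tyrobp) named after their values were seen. Calculations used Python 3.11.15, numpy 2.4.6, pandas 2.3.3, statsmodels 0.14.6 and limma 3.58.1, and were tested on simulated data.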

Additional observations from a re-analysis of the deposited data

How the results depend on the processing

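All processings but normexp were planned; that on mean signals was not run, as the files used hold median signals, and normexp on median signals was chosen after seeing the data. With 1 array per group a value was compared with the scanner software's error. No paired analysis was possible because each group has 1 array. Across all genes 561 passed 2-fold (290 higher, 271 lower), 150 and 177 with normexp and 613 and 699 without a filter on dim probes. Scaling on probes above background on both arrays moved the all-gene median from −0.09 to 0.05. The count of Fc receptor genes at least 1.5-fold lower was 1, and 0 with that scaling, quantile normalization, loess and the deposited table. Without a filter on dim probes 1 gene, Fcamr, was at least 2-fold (and so 1.5-fold) higher, at 1.15. The Fc receptor median was 0.27 with loess and −0.03 with median scaling. With loess, quantile normalization and the deposited table, in that order, medians moved to 0.075, 0.071 and 0.072 for complement receptors, 0.33, 0.33 and 0.33 for red pulp macrophages, −1.30, −1.30 and −1.30 for neutrophils, 0.077, 0.061 and 0.062 for T cells, −1.53, −1.55 and −1.55 for platelets, and 0.040, 0.026 and 0.027 for erythroid cells. Loess gave 0.18 for activating signalling and 0.24 for marginal zone macrophages. Normexp gave 0.13 for other Fc-binding genes, and probes above background on both arrays gave −0.15 for mast cells and basophils, with fewer genes measured. Otherwise the cause was not tested. Dim signals limit Fcgr1, Fcamr and Fcrlb.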
